A study of Mus musculus with 16 samples.

Results

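The contralesional primary motor cortex, the motor cortex of the hemisphere opposite the stroke, was compared between mice that recovered their motor performance spontaneously and mice that did not. All groups were C57Bl6 mice that had undergone stroke, and their recovery was scored by walking along a horizontal rotating beam, a test of balance and gait. The recovered group held 3 animals (numbers 6, 23 and 28) and the non-recovered group 5 (numbers 17, 19, 20, 21 and 29), each with 1 poly(A) RNA library of this cortex. No mouse without a stroke was included in the groups described here, and the sources used here do not give the age, the sex, the way the stroke was made, the time from stroke to dissection or the score that defined recovery. Every gene of the contralesional table was taken, which gave 417 of the 661 genes listed for the 2 hemispheres and 8 of the 16 libraries. The ipsilesional table lists 263 genes, and 19 genes are in both.

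The primary motor cortex drives voluntary movement mainly of the opposite side of the body and is joined to its counterpart through the corpus callosum. After a stroke on 1 side, the intact motor cortex can change its excitability and its input to the injured hemisphere, and it can contribute crossing and uncrossed projections to the brainstem and spinal cord. Its layers hold excitatory projection neurons, inhibitory interneurons, glia and vessels, and the tissue lies directly above the corpus callosum, with the striatum below.

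The authors listed a selection of genes, and the values themselves show on what: genes stand in the order of their difference between the groups, and the largest unadjusted p of the 417 was 0.156. So the counts below describe this selection, and the p-values were adjusted within it, not over all expressed genes. The genes were listed for their difference between the same animals, so neither p nor adjusted p gives an error rate. Genes said to pass, rise or fall at the adjusted threshold are marked by a cut within the list. Values are log2 counts per 1000000 reads (log2 CPM), which are not divided by gene length, so they serve to compare libraries for 1 gene and not 1 gene with another. Bulk cortex was sequenced, so fewer cells of a type and less RNA per cell cannot be told apart. The tissue label could not be checked by which markers are listed, since the list follows the difference between the groups. Of 37 cortical excitatory neuron markers 1 (Foxo6) and of 29 interneuron markers 2 (Sst and Trhr) were listed. None was listed from the marker lists for microglia, oligodendrocytes, vascular and mural cells, or thalamus and hippocampus. A gene that is not listed was not analysed here. The labels also disagree on a pair of recovered animals: the sample code that the contralesional table gives to animal 6 belongs to animal 23 in the other hemisphere, and the reverse, which leaves the groups as they are.

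Library totals recovered from the values ran from 17972791 in animal 28 to 27895465 in animal 17. They were 21.9 ± 3.81 M reads in the recovered group (SD, n = 3) and 25.5 ± 2.98 M in the non-recovered group (SD, n = 5), a difference within the spread (2-sided exact permutation test, p = 0.214; 0.0179 is the smallest p this design allows). The listed genes held 1.51 ± 0.0323% and 1.55 ± 0.0159% of those totals (exact permutation test, p = 0.143). A gene had between 7 and 35404 reads in a library. No 2 libraries of a group differed by counting error alone. The chi-square between their reads was 2.73 to 11.8 times its degrees of freedom, where counting error alone makes them about equal. This does not show from which animal a library came.

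On the first principal component of the 417 genes, which held 51.7% of the variance between libraries, the recovered animals 6, 23 and 28 stood at 3.37, 5.42 and 4.17. The non-recovered animals 17, 19, 20, 21 and 29 stood at -3.38, -2.40, -2.57, -3.18 and -1.42. Since the genes were listed for their difference between these animals, this separation describes the selection. Within the groups the libraries were not alike. Animal 23 was the farthest out: it had the highest value of the 8 libraries in 81 genes and the lowest in 147, against 32 and 55 for animal 6 and 34 and 67 for animal 28. Its sample code is also the only one of the 8 contralesional codes that starts with another number, and the labels do not say what that start stands for; it is the code that the other hemisphere gives to animal 6. Animal 6 stood nearer to the mean of the non-recovered group than to that of the other recovered animals in 126 genes, animal 28 in 100 and animal 23 in 44. Animal 29 stood nearer to the recovered mean than to that of the other non-recovered animals in 88 genes and animal 21 in 81, whereas animal 20 did so in 34. The own-group mean rests on fewer animals in the recovered group, so these counts are not alike between the groups. The second component, with 13.4% of the variance, set animals 28 (3.20) and 21 (2.43) apart from the other 6. Animals 28 and 21 also had the smallest totals of the 8 libraries, 18.0 and 20.5 M reads, with animal 6 next at 22.0 M. Whether depth played a part in this component was not tested.

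**Figure D1:**
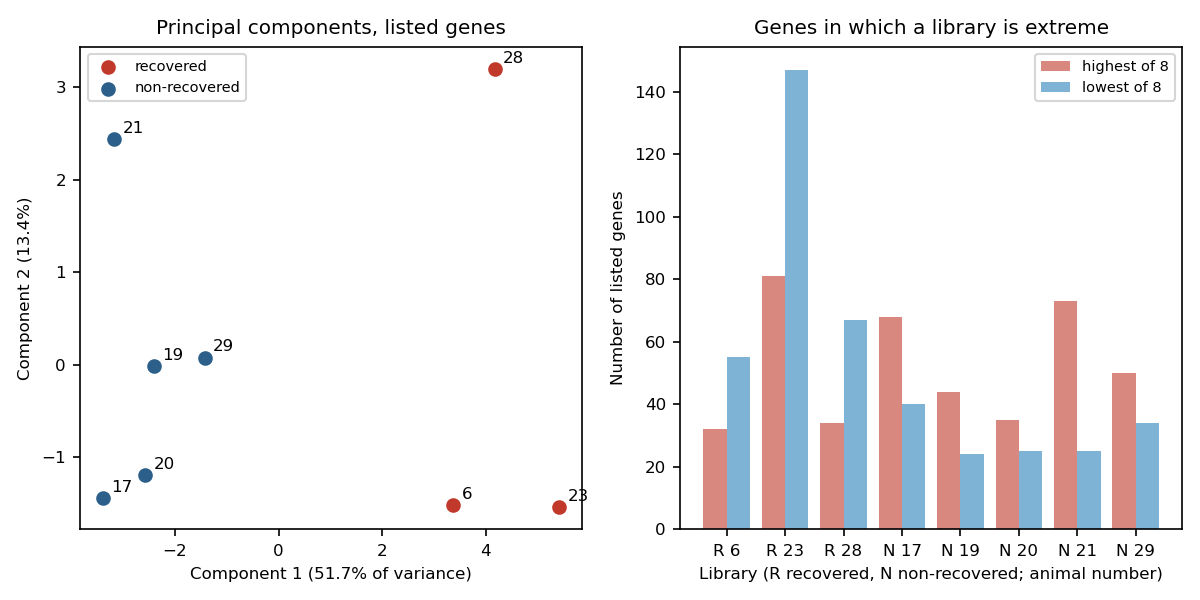
Position of the 8 contralesional libraries over the 417 listed genes, by animal and group, on the principal components and by the number of genes in which a library was the highest or the lowest. Recovered animals lie at 3.37 to 5.42 and non-recovered animals at -3.38 to -1.42 on the first component, and animal 23 is the lowest library in 147 genes.

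The libraries also stood apart in single genes. Animal 23 was lowest in Meg3, a long non-coding RNA of the imprinted Dlk1-Dio3 region, at 7.22 log2 CPM where the next library had 7.98, and in Miat, a nuclear long non-coding RNA of neurons, at 4.397 against 5.04. Animal 28 was lowest in Slc9a2, a sodium-proton exchanger, at 0.66 against 1.63, and in Glra3, a glycine receptor subunit, at 0.50 against 1.31. Animal 6 was lowest in Sfi1, a centrosome protein, at 0.93 against 1.75. Animal 17 was lowest in Trhr, at -0.46 against 0.14, and animal 20 in both adult beta-globin genes. Animal 21 was highest in Cdca7, a cell cycle gene, at 1.74 against 1.29. Animal 29 was lowest in Syndig1l, a gene used here as a striatal marker, at 0.75 against 1.24.

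Of the 417 genes, 270 (64.7%) had a lower and 147 (35.3%) a higher mean in recovered animals. In 180 genes (43.2%) the groups did not overlap, with every recovered library above every non-recovered library in 74 (17.7%) and below in 106 (25.4%). Differences were small: the median absolute log2 difference was 0.26, with quartiles of 0.19 and 0.38, and 3 genes reached 2-fold. By limma, 306 genes (73.4%) had an unadjusted p under 0.05, 107 higher (25.7%) and 199 lower (47.7%). After Benjamini-Hochberg adjustment over the listed genes 33 (7.91%) passed 0.05, of which 8 rose (1.92%) and 25 fell (6.0%) in recovered animals. Rescaling the libraries so that the listed genes balance (trimmed mean of M-values, TMM) moved the median difference by 0.11 on the log2 scale and turned this split into 128 higher and 22 lower among 150 genes, while no gene changed direction. The count rested on single libraries as well: it was 0 without animal 17, 1 without animal 20, 3 without animal 19, 6 without animal 28, 10 without animal 21 and 16 without animal 23, but 58 without animal 6 and 74 without animal 29. It was also 0 (smallest adjusted p 0.0501) when limma's variance prior was allowed to follow the level, with 360 genes at an unadjusted p under 0.05.

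Values in the following are log2 CPM in the order of animals 6, 23 and 28 for the recovered and 17, 19, 20, 21 and 29 for the non-recovered group, and differences are recovered minus non-recovered on the log2 scale. Naaladl2 and Gk5 passed the threshold under the most settings. Naaladl2, a relative of the glutamate carboxypeptidases (chromosome 3, 23798102 to 25144261, minus strand, GRCm38), stood at 1.73, 1.80 and 1.82 in recovered animals and at 2.37, 2.37, 2.14, 2.22 and 2.36 in the others. All recovered libraries lay below all non-recovered ones, and the level fell by 0.51 (SE 0.08, adjusted p = 0.0281). The call held in 7 of the 8 fits that each left out 1 library and in 12 of 15 alternative settings.

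Gk5, which codes for a putative glycerol kinase (plus strand of chromosome 9, 96119362 to 96184608), stood at 0.70, 0.97 and 1.02 against 1.47, 1.33, 1.58, 1.47 and 1.58. It fell by 0.59 (SE 0.09, adjusted p = 0.0281) without overlap, at 34 to 80 reads a library, and passed in 11 of 15 settings. Cox16, an assembly factor of respiratory complex IV (chromosome 12, 81359026 to 81485127, minus strand), stood at -0.08, -0.28 and -0.21 against 0.34, 0.40, 0.49, 0.21 and 0.19, a fall of 0.52 (SE 0.09, adjusted p = 0.0330). It rests on 14 to 35 reads a library, and 56.8% of its exonic bases belong also to Gm20498 on the same strand, so reads of these overlapping genes may be split between them.

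Genes of cell division stood among those that fell. Cenpl, a centromere protein (chromosome 1, 161070713 to 161086724, plus strand), stood at -0.23, 0.03 and -0.12 against 0.38, 0.71, 0.32, 0.48 and 0.23 and fell by 0.53 (SE 0.11, adjusted p = 0.0469). Hmmr, a hyaluronan receptor that also binds the mitotic spindle, stood at -0.08, 0.33 and -0.12 against 0.79, 0.57, 0.60, 0.48 and 0.44 and fell by 0.54 (SE 0.12, adjusted p = 0.0469). Both had fewer than 50 reads in every library. Of the 6 listed genes caught by the cell division list, 5 were lower, beside 64.7% of all 417 genes. Cenpl alone of the 6 passed the adjusted threshold, beside 7.91% of all 417 genes. Cdca7 differed by -0.80 (SE 0.23, adjusted p = 0.0520) without overlap, and Bub1b, a spindle checkpoint kinase, by -0.73 (SE 0.30, adjusted p = 0.0597) with overlap. The 1 higher member, Skap1, is a T cell adaptor caught by the shared start of its symbol.

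Signalling genes that fell included the G protein-coupled receptors Gpr6, Ptger4 and P2ry1 and the secreted factors Bmp5 and Stc1. P2ry1, a receptor for ADP, stood at 0.66, 0.75 and 0.61 against 1.37, 1.33, 1.08, 1.36 and 0.87 and fell by 0.53 (SE 0.12, adjusted p = 0.0469). In this gene animal 29 stood lowest of the non-recovered group and nearest to the recovered animals. Bmp5, a bone morphogenetic protein (chromosome 9, 75775364 to 75900310, plus strand), stood at 0.99, 1.03 and 0.66 against 1.66, 1.42, 1.50, 1.16 and 1.40 and fell by 0.53 (SE 0.12, adjusted p = 0.0469). Antisense genes cover 46.7% of the exonic bases of Bmp5 and 23.1% of those of P2ry1. The kit marks strand, but the sources used here do not say whether the counting used it. Ptger4, a prostaglandin E2 receptor, was the 1 gene that passed although the groups overlapped: animal 6 stood at 0.39, above the 0.36 of animal 29, while animals 23 and 28 had -0.28 and -0.31. Stc1, a secreted glycoprotein of calcium and phosphate balance, fell by 0.33 (SE 0.08, adjusted p = 0.0469).

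The other genes that fell differed by -0.34 to -0.61, all with an adjusted p of 0.0469 and without overlap. Mgp, matrix Gla protein, an inhibitor of calcification made by vessel and meningeal cells, stood at 3.50, 3.38 and 3.28 against 3.97, 3.70, 3.74, 3.68 and 3.85. Ehd2, a protein of endothelial caveolae, stood at 2.66, 2.35 and 2.66 against 3.03, 2.87, 2.89, 2.86 and 3.17. Crispld1, a secreted cysteine-rich protein, stood at 2.31, 2.17 and 1.77 against 2.71, 2.79, 2.62, 2.39 and 2.95. Every non-recovered library was above every recovered one in these 3 genes, by 0.18, 0.20 and 0.09 for the nearest pair of libraries. Solute carriers among these genes were Slc25a24, a mitochondrial carrier of ATP-magnesium and phosphate, with -0.40, and Slc16a9, a carnitine transporter, with -0.36. Mov10, an RNA helicase of silencing complexes, differed by -0.51, Npl, a sialic acid lyase, by -0.39, Zscan29, a zinc finger protein, by -0.36 and Spag4, a nuclear envelope protein, by -0.38. Tmem54, Pcdhb6, AA986860, BC028528, Tmem181b.ps (a pseudogene) and Crybg3.1 differed by -0.56, -0.42, -0.34, -0.44, -0.54 and -0.58. Crybg3.1 matched no annotated symbol, and BC028528 shares 49.8% of its exonic bases with an antisense gene.

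Sema5b, a transmembrane semaphorin that guides axons and limits synapse number (chromosome 16, 35541145 to 35664732, plus strand), passed under the most settings of the 8 genes that rose. It stood at 3.80, 3.85 and 3.94 in recovered animals and at 3.27, 3.58, 3.34, 3.43 and 3.48 in the others, a rise of 0.44 (SE 0.08, adjusted p = 0.0469), and passed in 10 of 15 settings. Micall2, an actin-linked adaptor of membrane traffic, stood at 0.99, 0.61 and 0.90 against 0.46, 0.40, 0.41, 0.38 and 0.44 and rose by 0.42 (SE 0.09, adjusted p = 0.0469). Its non-recovered libraries kept within 0.38 to 0.46, and animal 23 was the recovered library nearest to them.

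Cfap65, a protein of motile cilia, stood at 0.49, 0.94 and 0.61 against 0.26, 0.26, 0.09, 0.27 and 0.09 and rose by 0.49 (SE 0.11, adjusted p = 0.0469). Pctp, a phosphatidylcholine transfer protein, stood at 0.62, 0.72 and 0.85 against 0.07, 0.31, 0.04, 0.27 and 0.52 and rose by 0.49 (SE 0.12, adjusted p = 0.0469). Here too animal 29 was the non-recovered library nearest to the recovered animals. Commd1, a regulator of copper and NF-kappaB, rose by 0.28, Slc44a5, a choline transporter-like protein, by 0.29, and Zfp580, a zinc finger protein, by 0.34, all with an adjusted p of 0.0469. Dhrs4, a peroxisomal carbonyl reductase, rose by 0.22 (SE 0.06, adjusted p = 0.0499), the passing gene closest to the threshold.

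**Figure D2:**
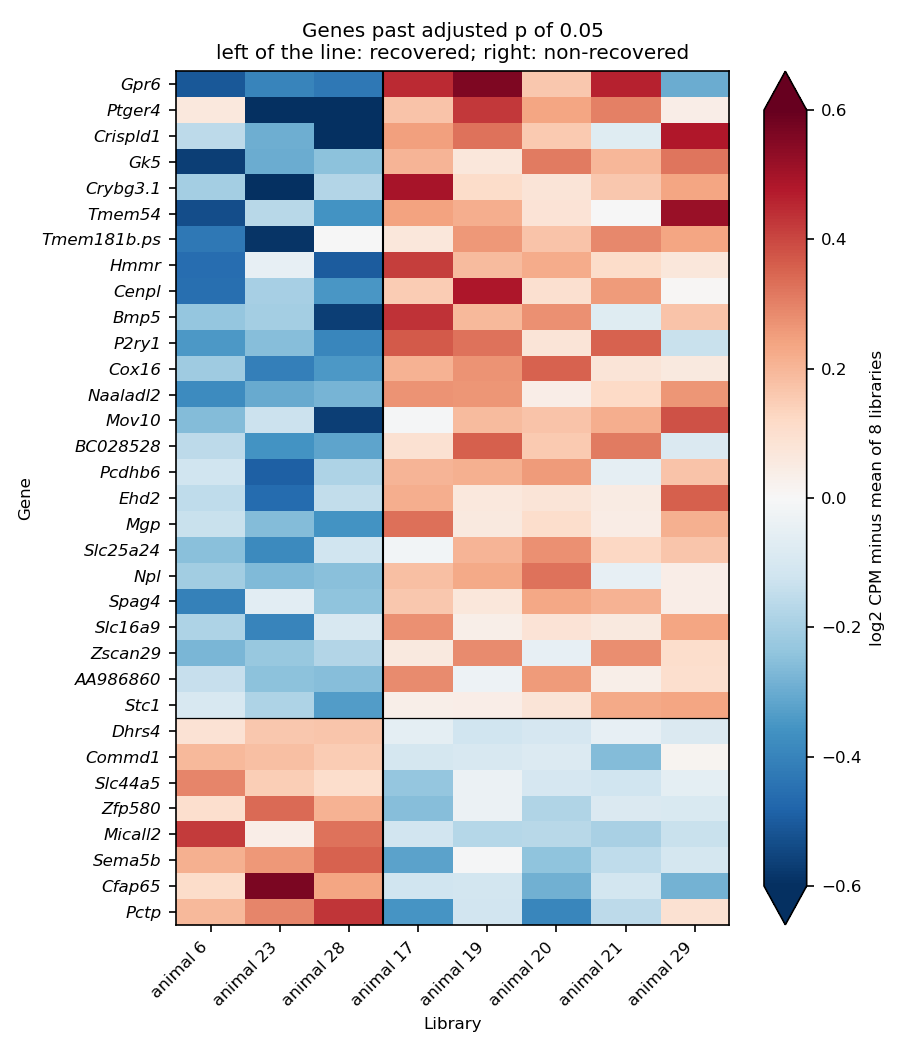
Deviation of each library from the gene's mean (log2 CPM) for the 33 genes past an adjusted p of 0.05, one row a gene and one column an animal, with the groups side by side. The color runs from -0.6 (blue) to 0.6 (red). Recovered animals are mostly blue in the 25 lower genes and red in the 8 higher ones. Ptger4 is the 1 row in which the groups overlap, with animal 6 (recovered, 0.39 log2 CPM) above animal 29 (non-recovered, 0.36).

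The passing genes lay at low read levels. With the genes split by mean level into 4 bins of near equal size, 23 of the 105 in the lowest bin passed, 10 of the 104 in the second bin, and 0 of the 104 in each of the upper bins. The median absolute difference went the same way, with 0.44 in the lowest bin, 0.27 and 0.21 in the middle bins and 0.18 in the highest. By overlap the picture was different: the groups were apart in 42 genes of the lowest, 60 of the second, 43 of the third and 35 of the highest bin. With only genes of a mean of at least 1 log2 CPM tested, 3 of 370 passed, which included Naaladl2, Gk5 and Sema5b. Others lay just past the threshold there, such as Bmp5 with an adjusted p of 0.0502.

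**Figure D3:**
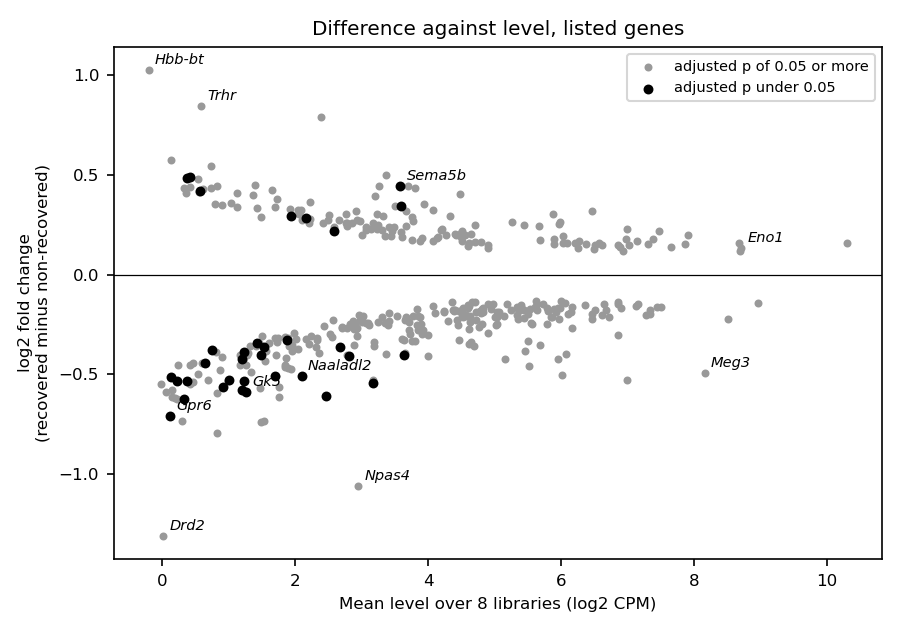
Difference between recovered and non-recovered animals (log2) against the mean level (log2 CPM) for the 417 genes, with the 33 genes past an adjusted p of 0.05 marked. The marked genes lie in the lower bins of level, which held 23 and 10 of them, and the widest differences, past 1 in 3 genes, were not among them.

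The widest differences belonged to genes whose libraries were spread within a group. Drd2, the dopamine D2 receptor of striatopallidal neurons, stood at -0.67, -1.20 and -0.53 against 0.60, 1.31, 0.37, 1.12 and -0.84, a difference of -1.31 (SE 0.43, adjusted p = 0.0564). Animal 29 lay within the recovered range. Npas4, a transcription factor induced by neuronal activity, stood at 1.44, 1.997 and 3.42 against 3.47, 2.43, 3.27, 3.72 and 3.85, a difference of -1.06 (SE 0.44, adjusted p = 0.0621), and animal 28 lay among the non-recovered animals. The difference of Npas4 was -0.64 without animal 6 and -1.63 without animal 28. Hbb.bt, an adult beta-globin, stood at 0.23, 0.19 and 0.90 against -0.53, -1.18, -1.53, -0.06 and 0.36, a difference of 1.02 (SE 0.40, adjusted p = 0.0590), with the second globin gene Hbb.bs at 0.79 (SE 0.26, adjusted p = 0.0567). None of these 3 genes passed the adjusted threshold.

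Of 31 markers of striatal projection neurons 11 were listed, and all 11 had a lower mean in recovered animals, against 270 of all 417. Gpr6, an orphan receptor of striatopallidal neurons, fell by 0.71 (SE 0.18, adjusted p = 0.0469), at -0.39, -0.28 and -0.31 against 0.57, 0.68, 0.28, 0.58 and -0.18, with 13 to 39 reads a library. Adora2a, the main adenosine receptor of these neurons, stood at 0.99, 1.18 and 1.02 against 2.22, 2.05, 1.30, 2.495 and 0.93 (adjusted p = 0.0678). Lrrc10b, a leucine-rich repeat gene of striatal neurons, stood at 1.12, 0.85 and 1.10 against 2.08, 2.21, 1.40, 2.43 and 0.69 (adjusted p = 0.0765). In Drd2, Adora2a, Lrrc10b and Syndig1l animal 29 lay below at least 1 recovered animal, and in Gpr6 it was the non-recovered library nearest to them. The summed level of the 11 markers ran from 344 to 398 CPM in recovered and from 413 to 483 CPM in non-recovered animals, with Foxp1, Rasd2, Pde10a and Penk among the members with many reads, and none was at 0 in any library. Drd1, Tac1 and Ppp1r1b, which define striatal projection neurons as well, were not listed. Whether striatal tissue in the dissections played a part in these differences was not tested.

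Other genes of cyclic AMP and monoamine signalling were lower or higher without passing. The phosphodiesterases Pde10a, Pde7b and Pde5a, which break down cyclic nucleotides, differed by -0.50, -0.35 and -0.23, and Pde10a (5.81, 5.42 and 5.89 against 6.11, 6.32, 6.01, 6.60 and 6.02) did so without overlap. Drd5, a dopamine D1-class receptor, stood at 1.64, 0.998 and 1.52 against 0.76, 1.08, 1.11, 1.25 and 0.69, a difference of 0.41 (SE 0.17, adjusted p = 0.0628), and 48.6% of its exonic bases overlap an antisense gene. So the listed D2-class and D1-class receptors stood on opposite sides, with overlap in both. Of the 10 listed genes of this list, 8 were lower and 2 higher, beside 64.7% lower of all 417 genes. Its 2 calls, Gpr6 and Ptger4, stand beside 7.91% called of all genes and are counted among the other receptors below as well.

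Peptide and other G protein-coupled receptors went both ways, with 6 of 11 higher and 5 lower. Trhr, the receptor for thyrotropin-releasing hormone, stood at 1.24, 0.85 and 1.24 against -0.46, 0.68, 0.23, 0.72 and 0.14, a difference of 0.85 (SE 0.25, adjusted p = 0.0520) without overlap. Npy2r, a neuropeptide Y receptor, was at 0.36 (adjusted p = 0.0520) and Mas1, the receptor for angiotensin-(1-7), at 0.26 (adjusted p = 0.0519). Sstr2, a somatostatin receptor, differed by 0.35 and its ligand Sst by 0.14, both with overlap (adjusted p = 0.0967 and 0.0887), and Sst stood at -0.12 with the length trend described below removed. Cckbr, the cholecystokinin B receptor, stood at 5.99, 6.03 and 5.95 against 5.74, 5.90, 5.83, 5.81 and 5.90, a small difference of 0.15 without overlap. None of the 6 higher receptors passed, and the 3 of 11 that fell were Gpr6, Ptger4 and P2ry1, beside 25 of all 417 listed genes (6.0%).

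Ion channel genes were few. Kcne4, an accessory subunit of potassium channels, differed by -0.61 (SE 0.17, adjusted p = 0.0519) without overlap, and Kcnmb2, a beta subunit of the calcium-activated BK channel, by 0.32 (SE 0.10, adjusted p = 0.0520) without overlap. Kcnh5 stood at 6.19, 5.43 and 5.48 against 6.51, 6.21, 6.23, 5.52 and 6.14, so animals 23, 28 and 21 were low and the other 5 high, across the groups. The alpha subunits of the glycine receptor stood on opposite sides, Glra3 at -0.57 and Glra2 at 0.45, both with overlap (adjusted p = 0.0590 for each). Syt5 and Syt10, calcium sensors of vesicle release, differed by 0.17 and 0.38 and did not pass. Scg2, a secretogranin of dense-core vesicles, stood at 7.68, 7.62 and 7.54 against 7.39, 7.48, 7.30, 7.28 and 7.51, a difference of 0.22 (adjusted p = 0.0576) with no overlap.

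Axon guidance and growth genes were 3 higher and 4 lower of 7 listed. Beside Sema5b, which rose, Sema3e differed by 0.25 and Sema3d by -0.27, so 2 of the 3 listed semaphorins were higher. The ephrin receptors Ephb6 and Epha8 differed by 0.18 and -0.40, and Sox11, a transcription factor of growing neurons, by -0.33 (SE 0.11, adjusted p = 0.0564) without overlap. Cntnap5b, a contactin-associated adhesion protein, stood at 3.20, 2.96 and 3.21 against 3.68, 3.59, 3.62, 3.25 and 3.49, a difference of -0.40 (SE 0.11, adjusted p = 0.0519). The listed protocadherin beta genes, neighbours on chromosome 18 that code for neuronal adhesion proteins, differed in direction: Pcdhb6 fell by 0.42, and Pcdhb7 and Pcdhb9 stood at 0.26 and 0.34 and did not pass. Members of this cluster are alike in sequence, so reads may be shared between them, and these differences are uncertain for that reason.

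Cytoskeletal genes were 6 higher and 3 lower of 9. All 4 listed tubulins were higher: Tubb2b by 0.26, Tubb2a by 0.20, Tuba1b by 0.15 and Tubb4b by 0.14, with adjusted p from 0.0590 to 0.113. Tubb2a had no overlap (7.96, 8.08 and 8.07 against 7.69, 7.93, 7.76, 7.92 and 7.89), while in Tuba1b animal 23 alone, at 7.64, stood above all the others, which ran from 7.23 to 7.34. Without animal 23 the difference of Tuba1b was 0.04. Tubulin genes are similar to each other too, and Tubb2a and Tubb2b are neighbours on chromosome 13. Myl9, a smooth muscle myosin light chain, differed by -0.34 and Myo1f, a myosin of leukocytes, by -0.40, and Micall2 was the member that rose.

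Zinc finger genes made the longest list, with 16 of 20 lower and 4 higher, beside 64.7% lower of all listed genes. Zscan29 fell and Zfp580 rose. The lower members differed by -0.13 to -0.46, and 9 of the 20 members were lower without overlap, beside 25.4% of all listed genes, among them Zfp566 (0.99, 1.05 and 0.61 against 1.14, 1.66, 1.27, 1.41 and 1.23) and Zfp280c (2.49, 2.82 and 2.68 against 3.15, 2.95, 3.03, 3.11 and 2.85). Zbtb24 and Zbtb2 were higher by 0.22 and 0.19 without overlap. Of 3 chromatin genes, Hdac4, a histone deacetylase regulated by calcium, was lower by 0.20 and Setdb2, a histone methyltransferase, higher by 0.33, neither with overlap nor past the threshold.

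All 6 genes caught by the long non-coding RNA list were lower, beside 64.7% of all 417 genes. Tmem181b.ps, a pseudogene caught by its symbol's ending, was the member that fell. Meg3 stood at 7.98, 7.22 and 8.36 against 8.11, 8.09, 8.22, 8.73 and 8.61, Miat at 5.04, 4.397 and 5.23 against 5.09, 5.27, 5.23, 5.58 and 5.40, and Snhg11 at 6.71, 6.21 and 7.09 against 7.01, 7.04, 7.12, 7.40 and 7.41. The order of the libraries was alike in these 3 genes: animal 23 was the lowest and animals 21 and 29 the highest. Animal 28 lay within the non-recovered range in all 3, and none passed (adjusted p = 0.0868, 0.0647 and 0.0576). Without animal 23 the difference of Meg3 went from -0.50 to -0.18.

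Transporters were 6 higher and 8 lower of 14. Slc25a24 and Slc16a9 fell and Slc44a5 rose. Slc26a2, a sulphate transporter, stood at 3.42, 3.43 and 3.36 against 4.16, 3.72, 3.86, 3.49 and 3.76, a difference of -0.39 (SE 0.13, adjusted p = 0.0564). Slc7a4, of the cationic amino acid transporter family, stood at 5.83, 5.77 and 5.86 against 5.53, 5.69, 5.49, 5.60 and 5.54, a difference of 0.25 (SE 0.07, adjusted p = 0.0519), and the groups did not overlap in either. Slc5a7, the choline transporter of cholinergic neurons, differed by -0.55 with overlap.

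Lipid genes were 5 higher and 4 lower of 9. Cyp51, a sterol demethylase, stood at 6.00, 6.36 and 6.09 against 5.95, 5.93, 5.82, 6.00 and 6.11, a difference of 0.19 (adjusted p = 0.0868) with overlap, and of 0.09 without animal 23. The list's call was Pctp. Of 3 mitochondrial genes Cox16 fell, and Mrps36 and Ndufb8 were higher by 0.23 and 0.17 without overlap, though in Ndufb8 animal 23, at 6.02, stood apart from all others, which ran from 5.56 to 5.68. Ubiquitin and proteasome genes were 6 higher and 5 lower, with no call. Psme1 and Psmb10, parts of the immunoproteasome system, were higher by 0.22 and 0.17, and Usp16, a deubiquitinase, was lower by 0.19.

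Of 6 listed genes of antigen presentation, interferon and cytokine signalling 2 were higher and 4 lower, with no call. H2.T23, a non-classical class I molecule also used as an astrocyte reactivity marker, stood at 3.90, 3.95 and 4.4 against 3.83, 3.60, 3.62, 3.68 and 3.51, a difference of 0.43 (SE 0.12, adjusted p = 0.0519) without overlap. Il1r1, the interleukin-1 receptor, stood at 1.69, 1.39 and 1.95 against 2.02, 2.05, 2.07, 1.99 and 2.05, a difference of -0.36 (adjusted p = 0.0520). Its non-recovered values lay within 1.99 to 2.07 and the recovered ones spread below them. Both haemoglobin genes were higher, their summed level was 6.44 to 12.5 CPM in recovered and 3.18 to 7.02 CPM in non-recovered animals, and animal 28 had the most. Whether blood left in the vessels played a part in any difference was not tested.

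The 3 listed glucocorticoid-responsive genes were lower, beside 64.7% of all 417 genes. Sgk1, a kinase induced by corticosteroids, stood at 5.64, 5.62 and 5.65 against 6.02, 6.00, 5.73, 5.89 and 5.80, a difference of -0.25 (SE 0.08, adjusted p = 0.0554). Tsc22d3, which codes for GILZ, differed by -0.17 (adjusted p = 0.0590), and both had no overlap. Hif3a differed by -0.47 with overlap. Of 4 activity-dependent genes Npas4, Btg2 and Klf2 were lower by 1.06, 0.53 and 0.36 with overlap, and Scg2 higher.

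**Figure D4:**
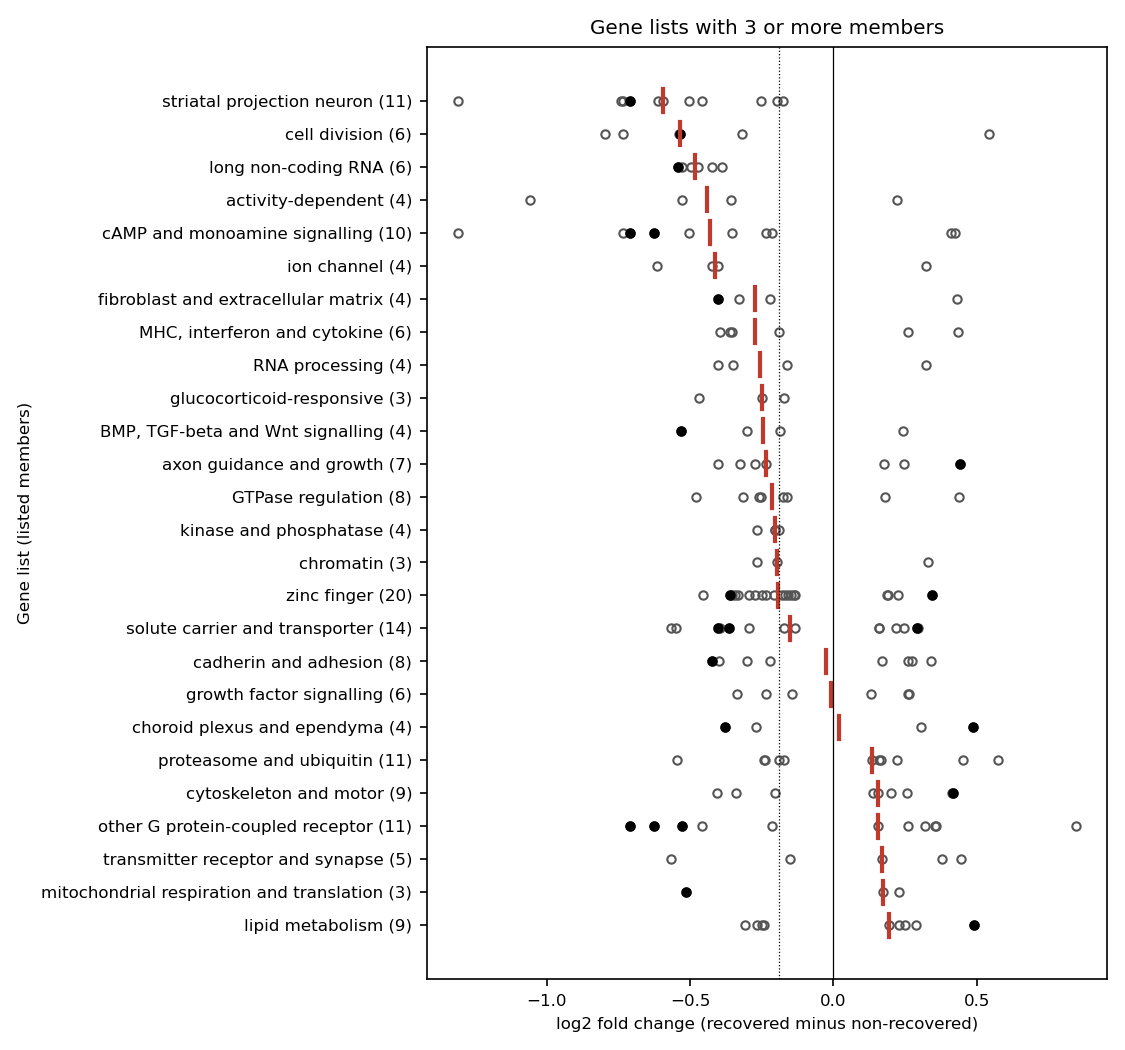
Log2 difference between recovered and non-recovered animals for each listed member of the gene lists with 3 or more members, one row a list and one point a gene (filled, past an adjusted p of 0.05; red bar, median of the list; dotted line, median of all 417 genes, -0.19). The 11 striatal markers lie between -1.31 and -0.18, the 6 long non-coding RNA genes lie below 0, and receptors, transporters and adhesion genes lie on both sides.

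Other small groups were mixed or one-sided by count. The 8 adhesion genes were 4 higher and 4 lower. The 6 genes caught by the growth factor list were 3 and 3, and the 8 genes caught by the GTPase list 2 and 6. The 4 kinase and phosphatase genes were 0 and 4 and the 4 RNA processing genes 1 and 3. The 4 genes caught by the choroid plexus and ependyma list were 2 and 2. Cfap65 rose, and the cilia genes Rsph9 and Dnah1 stood at 0.31 and -0.27. Spag4, which fell, is a nuclear envelope protein caught by the start of its symbol. Of 4 matrix genes Mgp fell, Fn1 (fibronectin) and Islr stood at -0.22 and -0.33 and Mmp2, a matrix protease, at 0.43, all 3 with overlap. Of 4 genes of BMP, TGF-beta and Wnt signalling Bmp5 fell, and the others, Fzd4, Smad3 and Fstl5, stood at -0.30, -0.19 and 0.24. Among the RNA processing genes Rbm4, a splicing factor, differed by -0.40 and shares 60.5% of its exonic bases with Gm21992. Igf1 and its receptor Igf1r were lower by 0.24 and 0.15, and Vegfa, the vascular growth factor, was higher by 0.27, with adjusted p of 0.0618, 0.0897 and 0.0919, and Igf1r stood at 0.015 with the length trend removed. Foxo6, the 1 listed excitatory neuron marker, stood at 3.49, 3.58 and 3.95 against 3.08, 3.37, 2.92, 3.36 and 3.15, a difference of 0.50 (SE 0.14, adjusted p = 0.0519) without overlap. Of the 417 genes, 182 belonged to a list and 235 to none.

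Genes of the circadian clock were singled out after their values were seen, as a small set whose members are known targets or parts of 1 feedback loop. Ciart, a repressor of the clock, Per3, a period gene, and Hlf, an activator of the PAR bZIP family, belong to the loop that is driven in rhythm by CLOCK and BMAL1 through the E-box CACGTG or by PAR bZIP factors through the D-box TTATGTAA. The promoters run from 250 bases before to 50 after the start (RefSeq, GRCm38.p6, all on the minus strand): chr3:95882179-95882478 for Ciart, chr4:151044616-151044915 for Per3 and chr11:90390868-90391167 for Hlf. Capitals mark the exact motifs, searched on both strands; the motifs do not overlap each other.
Ciart: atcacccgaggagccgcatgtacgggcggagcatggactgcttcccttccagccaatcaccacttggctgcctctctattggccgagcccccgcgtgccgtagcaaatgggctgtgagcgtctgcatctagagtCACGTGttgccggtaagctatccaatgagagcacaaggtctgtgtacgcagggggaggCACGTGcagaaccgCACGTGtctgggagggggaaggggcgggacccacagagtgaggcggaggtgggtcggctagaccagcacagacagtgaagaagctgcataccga
Per3: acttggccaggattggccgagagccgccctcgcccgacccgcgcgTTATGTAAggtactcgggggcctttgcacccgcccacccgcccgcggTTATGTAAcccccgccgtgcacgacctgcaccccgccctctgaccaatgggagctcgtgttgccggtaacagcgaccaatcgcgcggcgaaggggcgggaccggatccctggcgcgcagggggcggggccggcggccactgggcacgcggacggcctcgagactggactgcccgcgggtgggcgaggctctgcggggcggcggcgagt
Hlf: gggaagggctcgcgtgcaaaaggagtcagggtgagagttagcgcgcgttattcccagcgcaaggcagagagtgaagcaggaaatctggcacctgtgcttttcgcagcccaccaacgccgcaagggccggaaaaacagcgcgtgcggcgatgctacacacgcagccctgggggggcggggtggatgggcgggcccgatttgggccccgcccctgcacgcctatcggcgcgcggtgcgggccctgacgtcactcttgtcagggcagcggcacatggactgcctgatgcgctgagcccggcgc

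The window of Ciart held 3 E-boxes, 116, 58 and 44 bases before the start, and that of Per3 held 2 D-boxes, 205 and 158 bases before it. Neither motif was in the window of Hlf. Among all 32851 promoters of the same length 7.15% held the E-box and 0.938% the D-box. A match describes the letters and is no measure of binding. Ciart stood at 3.85, 3.42 and 3.99 against 4.13, 4.03, 4.04, 4.23 and 3.74, Hlf at 8.53, 8.29 and 8.31 against 8.74, 8.57, 8.72, 8.50 and 8.45, and Per3 at 4.98, 4.80 and 4.77 against 4.88, 5.11, 5.07, 5.10 and 4.93. All 3 had a lower mean in recovered animals, by 0.28, 0.22 and 0.17, all overlapped, and none passed (adjusted p = 0.0911, 0.0647 and 0.0797). Without animal 23 the difference of Ciart was -0.11. The sources used here do not give the hour of dissection. BC028528, which fell, is transcribed from the same strand 1702 bases from Ciart.

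Direction went with gene length across the listed genes. The median exonic length was 6669.5 nt in the 268 lower genes with an annotation and 3055 nt in the 147 higher ones. With 4 bins by length, 70 genes were higher and 34 lower among the shortest, then 42 and 62, 26 and 77, and 9 and 95 among the longest. Across the 415 annotated genes, which share the same 8 libraries and are not independent, Pearson's r between log2 length and the difference was -0.29 and Spearman's rho -0.21. By library, the slope of the deviation from the gene mean per doubling of length was -0.11 in animal 23, -0.045 in animal 28 and -0.016 in animal 6, and 0.024 to 0.043 in the non-recovered animals. The recovered libraries fell on 1 side of 0 and the non-recovered ones on the other, with animal 23 farthest out. Deviations are taken from the mean of the 8 libraries, so the slopes sum to 0. Given the relation above, the group means of the slopes had to differ in sign. The slopes by library therefore restate that relation and are no separate support for it. RNA integrity was 7 to 9 per the labels' protocols, without a value for each library, and whether RNA integrity or library preparation had a part in the length relation was not tested. With each library's length trend removed, 72 of 415 genes passed, 20 higher and 52 lower, of which 30 were among the 33, and 6 genes changed direction.

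**Figure D5:**
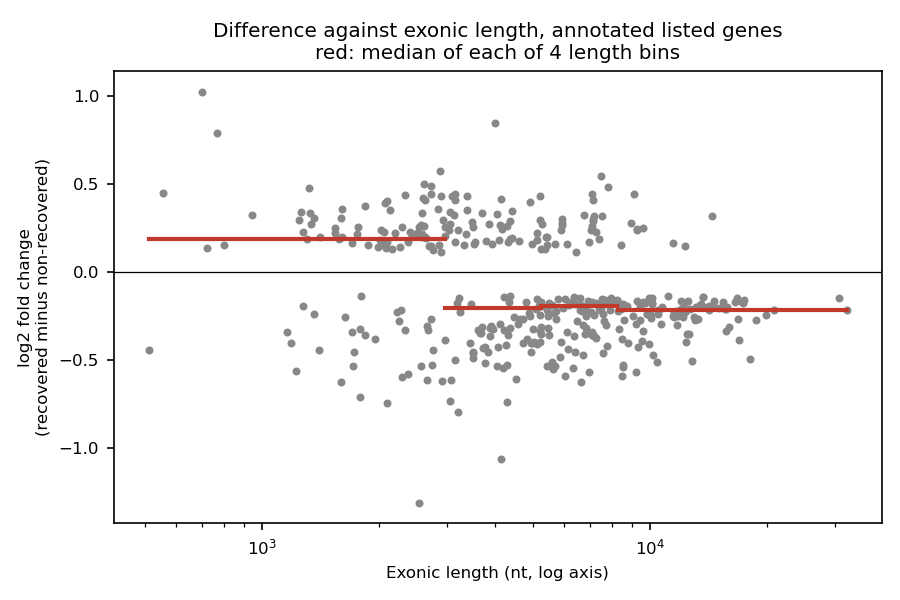
Log2 difference between recovered and non-recovered animals against exonic length (log scale, nt) for 415 genes, with the median of each of 4 bins of length as a red line. Higher genes outnumber lower ones 70 to 34 among the shortest genes and lower genes outnumber higher ones 95 to 9 among the longest.

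Within 100000 nt of each other lay 28 pairs of listed genes, of which 17 went in the same and 11 in opposite directions. Tubb2a, Tubb2b and the proteasome assembly gene Psmg4 were higher together on chromosome 13. Cenpl, which fell, lies 35863 nt from Zbtb37, which differed by -0.27. Islr and Islr2, which overlap on chromosome 9 and code for related membrane or secreted proteins, differed by -0.33 and 0.27, and Pkib and Fabp7 on chromosome 10, 43768 nt apart, by -0.25 and 0.29.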

How the data were processed

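Poly(A) RNA of contralesional primary motor cortex was extracted with Trizol and an RNeasy kit (RNA integrity number 7 to 9) and made into stranded TruSeq libraries, as the labels' protocols state. The mm10 build, STAR 2.5.1b, Trimmomatic 0.38, bcl2fastq and edgeR appear in the submitters' processing notes without a role; the sources used here do not give the counter, its strand setting, the annotation or the selection rule. The authors deposited log2 CPM (counts per 1000000 reads on a log2 scale) for 417 selected genes.

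Solving each value for the reads behind it, with a prior of 2 reads at the mean library size, gave whole numbers within 0.01 for 100% of values. The total may include a normalization factor. Groups came from the sample titles. Recovered and non-recovered libraries (n = 3 and 5) were compared on the deposited log2 values by limma (3.58.1, under R 4.3.3). The fit was 2-sided, with Benjamini-Hochberg adjustment over the 417 genes, and was tested on simulated data. The p-values set each difference against the spread between these animals. They give no error rate, because the genes were listed for their difference between the same animals. Groups of genes were described by counts, with no set test. Alternatives were other pseudocounts (1 and 0.1), a level filter, a variance trend, TMM by hand (trims of 30% and 5%), voom on the recovered reads, removal of each library's length trend and leaving out each library.

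The members, gene lists and tests were chosen with earlier results of these data known. Named were the 33 genes past the threshold, the 10 largest differences each way, up to 4 members a list and direction, the 5 highest levels, the 5 widest gaps between groups each way and the 2 genes in which a library stood most apart; 9 further groups were picked after values were seen, and a few genes are named for their place beside these. Coordinates and exonic lengths are from GENCODE M21 (GRCm38, the assembly behind mm10), 1-based over the whole gene, with 415 of 417 symbols matched. Promoters are from RefSeq. A few listed genes are counted in the groups but not reported here by name.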

Additional observations from a re-analysis of the deposited data

Results flagged for a closer look

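In 10 of the 198 named genes (5.05%) 1 non-recovered animal stood apart from the other 4 by more than Dixon's 95% limit; chance gives about 1 in 20. The recovered group, with 3 animals, was not tested this way. Animal 21 stood below the others in Flrt2 (6.87 log2 CPM, next 6.98), an adhesion protein that guides axons, in Pcdhb6 (1.16, next 1.38) and in the phospholipase D family gene Pld5 (3.12, next 3.46). It stood above them in Tet2 (5.09, next 4.83), a DNA demethylase. Animal 29 stood below in the ephrin receptor Epha8 (2.45, next 2.96) and the secreted protein Islr (3.43, next 3.79), and above in Vegfa (5.46, next 5.17). Animal 19 stood below in the copine Cpne2 (3.17, next 3.42) and in Glra3 (1.31, next 1.70), and animal 20 above in Pcdhb9 (3.44, next 3.37). Of these genes Pcdhb6 passed the adjusted threshold between the groups, and its direction was the same without animal 21.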

How the results depend on the processing

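Against 33 genes past the threshold (8 higher, 25 lower), log2(CPM + 1) and a mean of at least 1 log2 CPM each left 3 (1 higher, 2 lower), the same 3 genes, Naaladl2, Gk5 and Sema5b. Many genes share 1 adjusted p and cross the threshold together. That of Bmp5, for example, went from 0.0469 to 0.0506 and 0.0502 in these settings. With log2(CPM + 1) 327 genes had an unadjusted p under 0.05, against 306. A variance prior with trend and voom on the recovered reads left 0 (0 higher, 0 lower; smallest adjusted p 0.0501 and 0.0520; 360 and 356 genes at an unadjusted p under 0.05). TMM gave 150 (128 higher), 29 of them among the 33, and genes without overlap went from 74 higher and 106 lower to 118 and 20; removing the length trend gave 72 (20 higher, 52 lower). TMM divides all listed values of a library by 1 factor, 0.917 to 0.975 in recovered and 1.02 to 1.04 in non-recovered animals. It thus added the same 0.11 to every log2 difference, which moved the split toward higher genes by construction. What else moved these counts was not tested. Leaving out 1 library gave 0 to 74 genes (0 to 20 higher, 0 to 54 lower), and 77 to 104 genes higher and 118 to 172 lower without overlap, where fewer libraries make overlap rarer by construction. With log2(CPM + 0.1) 32 genes passed. No named gene changed direction under any of these settings except Aldoa (-0.084), Igf1r (0.015) and Sst (-0.12), and those with the length trend removed. No paired analysis was possible because recovered and non-recovered animals share no numbers. The planned edgeR fit on the recovered reads was not run; voom on those reads was. Leaving out 1 library shrank the difference over 1.5 times in 64 of the 198 named genes, in 38 of them the most without animal 23, and in 0 of the 33 that passed. A gene passes when its difference is wide beside the spread within the groups, so this 0 is no separate support for the calls. At 7 to 50 reads a library, as in Cenpl, Hmmr and Cox16, counting error limits each value, and the prior count shrinks differences. The selection of genes by the authors limits all counts.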

Other observations

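The following groups were assembled after the values were seen, so their direction is a description, with no test of the group. All 12 listed genes of the vessel wall group had a lower mean in recovered animals, beside 64.7% of all 417 genes, with a median difference of -0.31 against -0.19. Ehd2, 1 of the 12, passed, beside 7.91% of all genes, and the marker list for vascular and mural cells had no listed member. Kitl, the ligand of the Kit receptor, stood at 6.16, 5.73 and 5.61 against 6.44, 6.05, 6.36, 6.01 and 6.29. Tinagl1, a matrix protein of vessels, stood at 2.11, 2.04 and 2.23 against 2.68, 2.34, 2.54, 2.19 and 2.46. Hspa12b, an endothelial member of the heat shock protein family, stood at 2.48, 2.31 and 2.30 against 2.59, 2.63, 2.85, 2.57 and 2.74, without overlap. The summed level of the 12 genes was 308, 240 and 276 CPM in animals 6, 23 and 28 and 361, 303, 338, 314 and 329 CPM in animals 17, 19, 20, 21 and 29, so animal 6 lay within the non-recovered range. The endothelial and mural markers Cldn5, Pecam1, Pdgfrb and Acta2 were not listed, and whether vessel content played a part was not tested.

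Genes of haematopoietic and myeloid cells went both ways, 3 of 9 higher and 6 lower. Was, an actin regulator of blood cells, differed by -0.58 and Aim2, a DNA sensor of the inflammasome, by -0.46, whereas Vav1, Itgb2 and Cd83 were higher by 0.34, 0.28 and 0.27. All overlapped and none passed. Of the prostanoid genes the receptor Ptger4 fell, the prostacyclin synthase Ptgis differed by -0.53 and the thromboxane synthase Tbxas1 by 0.44, the last pair with overlap.

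The 9 metabolic genes picked here, with high read levels, differed by small amounts. The groups did not overlap in 3 of the 4 glycolytic genes and 3 of the 5 of amino acid supply, beside 43.2% of all listed genes. The glycolytic genes Gpi1, Eno1, Aldoa and Ldha were higher by 0.12, 0.13, 0.16 and 0.16, and the first 3 had no overlap, but Aldoa stood at -0.084 with the length trend removed. Aldoa stood at 10.36, 10.43 and 10.41 against 10.18, 10.30, 10.23, 10.29 and 10.24. Genes of amino acid supply were higher, with 5 of 5: Slc3a2, the heavy chain of amino acid exchangers, by 0.16, Slc1a4, a serine and alanine transporter, by 0.16, Atf5, a stress-response transcription factor, by 0.14, Asns, asparagine synthetase, by 0.15, and Ass1, argininosuccinate synthase, by 0.23. None of these 9 genes passed.

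The antiproliferative genes Btg2, Tob1 and Tob2 were lower by 0.53, 0.21 and 0.18, with overlap. The neurexin ligands Nxph2 and Nxph3 were higher by 0.34 and 0.40, with overlap, and in Nxph3 (4.35, 4.86 and 4.97 against 4.097, 4.61, 4.33, 4.58 and 3.99) animal 6 lay within the non-recovered range.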
